A study of Mus musculus with 16 samples.

Results

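Respiratory complex I, or NADH:ubiquinone oxidoreductase, was followed through its nuclear genes, taken as every probe set whose only gene symbol in the platform annotation starts with Nduf. That rule found 69 of the 7729 probe sets in the table, and they stand for 38 genes. A further 6 probe sets that pair an Nduf symbol with other symbols were not counted. Expression was measured in female C57BL/6 mice aged 7 weeks. The transgenic animals, SOD1-G93A, carry human superoxide dismutase 1 with the G93A substitution and model amyotrophic lateral sclerosis, a disease of motor neurons, before symptoms. Their controls were non-transgenic mice (NTg). Each of 4 mice per genotype gave a calf muscle, the gastrocnemius, and a muscle of the upper arm, the triceps, so that 16 Affymetrix arrays form 4 groups of 4. The labels name neither the promoter nor the line of the transgene. Whole muscle was profiled, so fewer cells of a type and less RNA per cell cannot be told apart.

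Complex I takes electrons from NADH in the mitochondrial matrix, passes them along iron-sulfur clusters to ubiquinone and pumps protons across the inner membrane. A matrix arm holds the NADH and ubiquinone sites, a membrane arm holds the proton channels, and many accessory subunits and assembly factors surround a conserved core. Muscle fibres that rely on oxidative metabolism are rich in it, and the genes of its nuclear subunits often vary together with those of the other respiratory complexes. The core subunits made in the mitochondrion were not analysed here.

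The promoters of the genes were read because 44 of 66 tested probe sets had a lower mean on the same 3 triceps arrays, as described below. Of all 4637 tested probe sets 2378 had a lower mean there. The RefSeq promoter table of build GRCm38.p6 held 35 of the 38 genes, and the 250 bases before each start were read. Motifs were searched on both strands: the core of the nuclear respiratory factor 1 site (NRF-1), GCGCANGC, the core of the ETS-type GABP site, CCGGAAG, and the site of estrogen-related receptors, AAGGTCA. The NRF-1 core was found before 6 of the 35 genes (17.1%), against 11% of the 21263 promoters of protein-coding genes in that table. The GABP core was found before 4 genes (11.4%, against 8.98%) and the estrogen-related receptor site before 2 (5.71%, against 3.59%). A member gene counted if any of its promoters held the string, whereas the background counts single promoters. Counted by promoter, the 3 strings were found in 7, 4 and 2 of the 37 promoters of the members. Most of these promoters therefore hold none of the 3 letter strings in this window, which says nothing about the factors. The promoters of 3 members are shown because those members had the lowest unadjusted p-values between the muscles, the first 2 toward gastrocnemius (Ndufa8 and Ndufb5) and the first toward triceps (Ndufa5). They are written from 5′ to 3′ on the strand of the gene and end at the base before the start, with NRF-1 cores in capitals. Ndufa8 lies on the minus strand (chr2:36049339-36049588) and holds 2 cores, which do not overlap. Ndufb5 lies on the plus strand (chr3:32736813-32737062) and holds none. Ndufa5 lies on the minus strand (chr6:24527691-24527940, the upstream one of 2 starts in the table) and holds 1.
Ndufa8: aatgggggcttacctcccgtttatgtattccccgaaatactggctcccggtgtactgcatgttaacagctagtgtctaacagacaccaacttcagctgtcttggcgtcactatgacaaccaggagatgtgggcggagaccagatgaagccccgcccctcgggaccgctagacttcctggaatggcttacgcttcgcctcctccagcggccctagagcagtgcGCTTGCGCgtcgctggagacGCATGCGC
Ndufb5: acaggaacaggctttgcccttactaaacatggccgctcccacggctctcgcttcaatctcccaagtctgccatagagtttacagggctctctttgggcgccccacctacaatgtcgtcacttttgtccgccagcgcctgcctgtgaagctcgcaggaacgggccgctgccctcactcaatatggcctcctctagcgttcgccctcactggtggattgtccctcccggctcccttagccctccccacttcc
Ndufa5: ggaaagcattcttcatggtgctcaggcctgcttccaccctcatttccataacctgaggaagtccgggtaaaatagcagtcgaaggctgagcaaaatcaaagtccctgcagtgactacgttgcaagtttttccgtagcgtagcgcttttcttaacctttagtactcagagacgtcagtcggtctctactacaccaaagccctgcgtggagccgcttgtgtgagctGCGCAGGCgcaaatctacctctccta
The NRF-1 core stood before Ndufa8, with a positive difference, and before Ndufa5, with a negative one of -0.37 on the probe set that led to its choice. The other Ndufa5 probe set stood at -0.006. No probe set of either gene was called as differing between the muscles. The genes were picked by p-value in these data, and a link of the core to the differences was not tested.

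Of the 69 probe sets, 66 were bright enough to be tested (mean log2 signal above 6.75 over all arrays), and they stand for 37 genes. The 3 that were too dim were Ndufb1 (1454771_at), which left that gene untested, and second probe sets of Ndufa10 (1418068_at) and Ndufs4 (1418117_at), genes that were tested through other probe sets. The tested members comprise 15 probe sets of 6 core genes, 16 of 8 accessory genes of the matrix arm, 27 of accessory genes of the membrane arm, 2 of Ndufab1, the mitochondrial acyl carrier protein that is also a subunit, 5 of 4 assembly factors and 1 of Ndufa4, named as a subunit but now assigned to complex IV. Mean levels of all 69 lay between 6.42 and 12.41 on the log2 scale, with a median of 10.84, while the median of all tested probe sets was 7.99. The spread between the arrays of a group was small for most members. The median standard deviation within groups was 0.18 for the 69 members, against 0.28 over all tested probe sets, which were dimmer. It was lowest for Ndufs3 (1423737_at, 0.093) and highest for the dim probe set of Ndufa10 (1418068_at, 0.99).

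The 3 triceps arrays with the lowest signal of Ckm, the muscle creatine kinase gene, stood apart from the rest: NTg replicates 1 and 2 and SOD1-G93A replicate 2, a choice made after their values were known. Their Ckm lay at 12.76 to 13.02, against 13.84 to 14.51 on the other 5 triceps arrays. Their highest signal was 13.08 to 13.29, against 13.94 to 14.57. They also had the 3 lowest means of the tested Nduf probe sets among all 16 arrays, though by little, at 10.498 to 10.533 against 10.535 to 10.742 on the other triceps arrays. The mean of all probe sets with a level above 10 was lower there too, at 10.95 to 11.02 against 11.16 to 11.31. Most counts of members that rest on triceps, and triceps and muscle differences of the members described most closely, are given with and without these arrays. Counts of other gene lists use all arrays unless stated otherwise. Without them triceps holds NTg replicates 3 and 4 and SOD1-G93A replicates 1, 3 and 4.

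Per array, the mean of the 66 tested Nduf probe sets differed little between genotypes. In gastrocnemius it was 10.68, 10.63, 10.59 and 10.71 in NTg mice (10.65 ± 0.055, SD, n = 4) and 10.65, 10.71, 10.63 and 10.69 in SOD1-G93A mice (10.67 ± 0.035, SD, n = 4). In triceps it was 10.51, 10.53, 10.62 and 10.74 in NTg mice (10.60 ± 0.11, SD, n = 4) and 10.55, 10.50, 10.54 and 10.74 in SOD1-G93A mice (10.58 ± 0.11, SD, n = 4). The genotypes overlapped in both muscles, and triceps spread more widely than gastrocnemius. In triceps the low-Ckm arrays lay at the bottom and replicate 4 of each genotype at the top. In SOD1-G93A triceps the low-Ckm array, at 10.50, lay near the arrays at 10.54 and 10.55, while replicate 4, at 10.74, stood apart. Without the low-Ckm arrays triceps still spanned 10.535 to 10.742, against 10.586 to 10.714 in gastrocnemius. The cause of the wider spread was not tested.

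**Figure D1:**
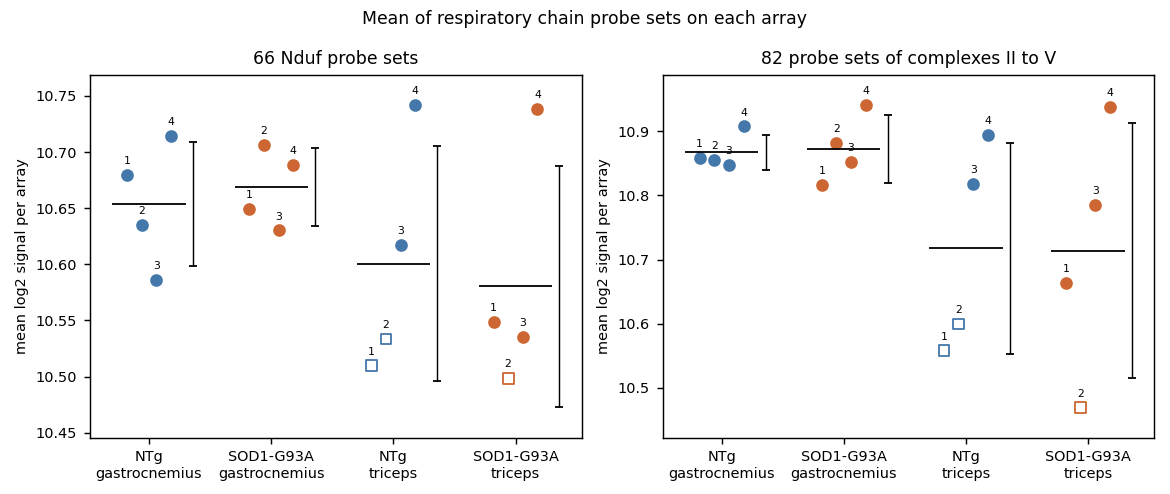
Mean log2 signal per array of the 66 tested Nduf probe sets (left) and of the 82 tested probe sets of complexes II to V (right). Numbers are replicates, horizontal lines group means, bars 1 SD to either side (n = 4) and open squares the 3 triceps arrays with the lowest Ckm, which have the lowest values in both panels.

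In gastrocnemius no Nduf probe set was called as differing between the genotypes. limma called 0 of the 66 members at a Benjamini-Hochberg adjusted p under 0.05, where 0% of the 4637 tested probe sets were called, and 0 members had an unadjusted p under 0.05, where 2.22% of all had one. Differences (SOD1-G93A minus NTg) ranged from -0.35 to 0.30 on the log2 scale. They were positive for 45 of 66 members with a median of 0.02 as deposited and for 32 of 66 with a median of -0.003 after quantile normalization. Over all tested probe sets 2184 of 4637 were positive as deposited, with a median of -0.01. The 95% interval stayed within 1.5-fold either way for 61 of the 66 members and within 2-fold for 66, its median margin being 0.28 on the log2 scale.

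Core subunits of the matrix arm had positive gastrocnemius differences for 13 of 15 probe sets as deposited (median 0.06) and for 9 of 15 after quantile normalization (median 0.04). Ndufs8, which carries iron-sulfur clusters near the ubiquinone site, had the smallest p among the positive core differences (1434579_x_at). Its signals were 11.11, 10.78, 10.73 and 10.87 in NTg and 10.75, 11.31, 10.95 and 11.10 in SOD1-G93A mice. The groups overlapped, with 1 transgenic array above all controls and another among the lowest, and the difference was 0.16 (SE 0.13, limma adjusted p = 0.999). The opposite sign was found for Ndufs1 (1425143_a_at), the large iron-sulfur subunit of the NADH module, where the difference was -0.13.

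Ndufs3, a core subunit at the ubiquinone module, was 1 of 2 members whose gastrocnemius groups did not overlap. Its signals (1423737_at) were 11.032, 11.029, 11.005 and 11.005 in NTg and 11.064, 11.154, 11.046 and 11.091 in SOD1-G93A mice. All transgenic arrays lay above all controls, by a mean of only 0.07 (SE 0.10). The other was Ndufc1, a small subunit of the membrane arm (1448284_a_at), at 11.60, 11.55, 11.54 and 11.54 in NTg and 11.72, 11.70, 11.80 and 11.78 in SOD1-G93A mice. Its difference was 0.19 (95% interval -0.05 to 0.43, adjusted p = 0.999), and its other probe set (1416285_at) overlapped between the groups. Groups failed to overlap for 2.7% of all tested probe sets, so 2 of 66 is near the background.

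Accessory subunits of the matrix arm were split in gastrocnemius, with 9 of 16 probe sets positive as deposited (median 0.003) and 5 of 16 after quantile normalization (median -0.02). The lowest difference of any member was that of Ndufs4, an accessory subunit of the NADH module (1438166_x_at). It was at 7.48, 7.88, 8.03 and 7.53 in NTg and 7.33, 7.13, 7.94 and 7.13 in SOD1-G93A mice. The groups overlapped through the third transgenic array, and the difference of -0.35 (SE 0.31, adjusted p = 0.999) was not shared by the brighter Ndufs4 probe set (1448959_at), at 0.05. Accessory subunits of the membrane arm were positive for 19 of 27 as deposited (median 0.06) and for 15 of 27 after quantile normalization (median 0.002).

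Assembly factors were positive for 2 of 5 probe sets in gastrocnemius. Ndufaf4, which acts with Ndufaf3 on the ubiquinone module (1435333_at), was at 7.02, 7.37, 7.21 and 7.65 in NTg and 7.39, 7.18, 6.37 and 6.97 in SOD1-G93A mice. The groups overlapped, the third transgenic array lying lowest, and the difference was -0.34 (SE 0.29, adjusted p = 0.999). Its second probe set (1427997_at) differed by 0.02. Ndufab1 (1428159_s_at) was at 10.90, 10.91, 10.81 and 11.03 in NTg and 10.54, 10.79, 10.85 and 10.71 in SOD1-G93A mice, a difference of -0.19 (SE 0.13, adjusted p = 0.999) with overlapping groups.

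**Figure D2:**
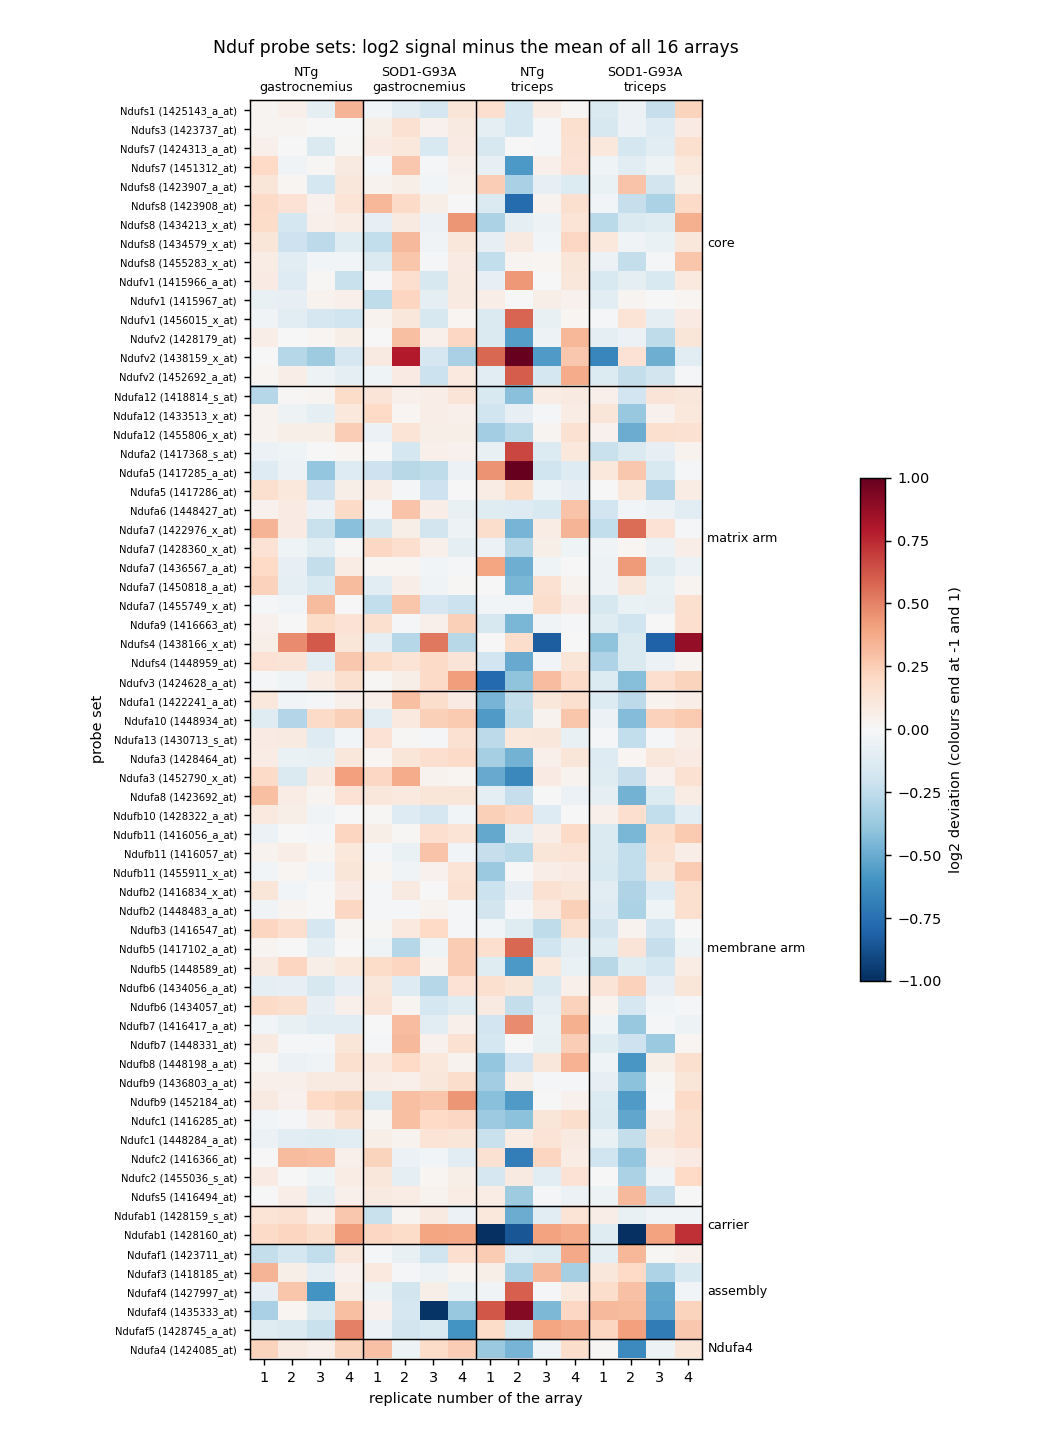
Deviation of each tested Nduf probe set (rows, grouped by role) from its own mean over all 16 arrays, in log2 units, for each array (columns, by group and replicate). Gastrocnemius is mostly pale, while NTg triceps replicates 1 and 2 and SOD1-G93A triceps replicate 2 hold many blue cells and several deep red ones, among them Ndufv2 and Ndufa5 in NTg triceps replicate 2.

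In triceps no Nduf probe set was called as differing between the genotypes either. limma called 0 of 66 at an adjusted p under 0.05 (0% of all tested probe sets), and an unadjusted p under 0.05 was seen for 2, where 2.54% of all tested probe sets had one. No member had groups that did not overlap, as 0.949% of all tested probe sets did. Differences were positive for 34 of 66 with a median of 0.006 as deposited and for 30 of 66 with a median of -0.008 after quantile normalization. Over all tested probe sets 2522 of 4637 were positive as deposited, with a median of 0.02. The 95% interval stayed within 1.5-fold for 58 members and within 2-fold for 64, and for 60 and 64 without the 3 low-Ckm arrays. The count of positive members turned on single arrays. It was 19 of 66 (median -0.05) without SOD1-G93A replicate 4, 22 (median -0.05) without NTg replicate 1 and 24 (median -0.05) without NTg replicate 2, and the median was also below 0 without SOD1-G93A replicate 1 (-0.005, 32 positive). Leaving out another triceps array gave 34 to 42 positive members with medians above 0.

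Both low p-values belonged to Ndufv2, the iron-sulfur core subunit beside the NADH site. One probe set (1438159_x_at) was at 10.62, 11.28, 9.48 and 10.32 in NTg and 9.40, 10.19, 9.56 and 9.94 in SOD1-G93A triceps. The control values covered almost the whole range, replicates 1 and 2 lying highest, and the groups overlapped. The difference was -0.66 (SE 0.30, 95% interval -1.28 to -0.03, limma adjusted p = 0.994). The second (1452692_a_at) was at 10.66, 11.37, 10.59 and 11.13 in NTg and 10.63, 10.53, 10.58 and 10.75 in SOD1-G93A triceps, a difference of -0.31 (SE 0.15, adjusted p = 0.994). The third Ndufv2 probe set (1428179_at) differed by 0.03. It was at 11.33, 10.92, 11.42 and 11.80 in NTg and 11.38, 11.41, 11.22 and 11.60 in SOD1-G93A triceps, so that NTg replicate 2, the highest of the 8 triceps arrays on the other 2 probe sets, was the lowest on this one. Leaving out the low-Ckm arrays, 2 of which are those high NTg replicates, the 3 differences were -0.27 (SE 0.28), -0.21 (SE 0.14) and -0.22 (SE 0.13), in the order given, with an adjusted p of 0.997 each.

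Ndufb7, a membrane arm subunit facing the intermembrane space (1416417_a_at), was at 10.73, 11.39, 10.85 and 11.27 in NTg and 10.88, 10.54, 10.91 and 10.87 in SOD1-G93A triceps. The transgenic values lay inside or below the control range, and the difference was -0.27 (SE 0.14, adjusted p = 0.994), or -0.18 (SE 0.13) without the low-Ckm arrays. The 2 probe sets of Ndufa3, a small membrane arm subunit, pointed upward, with 11.13, 10.98, 11.51 and 11.58 in NTg and 11.33, 11.48, 11.57 and 11.54 in SOD1-G93A triceps for 1428464_at. NTg replicates 1 and 2 were its lowest arrays. The difference was 0.18 (SE 0.13, adjusted p = 0.994), and without the 3 low-Ckm arrays it was -0.07. The other Ndufa3 probe set (1452790_x_at) likewise went from 0.22 to -0.03. Ndufa9, a nucleotide-binding subunit of the ubiquinone module (1416663_at), differed by 0.13 (SE 0.12, adjusted p = 0.994) and, without those arrays, by 0.04 (SE 0.11).

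By role, 7 of 15 core, 11 of 16 matrix arm accessory and 12 of 27 membrane arm accessory probe sets were positive in triceps, with medians of -0.02, 0.06 and -0.02. The assembly factors were positive for 1 of 5, with a median of -0.15. Without the 3 low-Ckm arrays the NTg triceps arrays were replicates 3 and 4, the latter with the highest Nduf mean of all 16 arrays (10.742). Of the 66 triceps differences 13 were then positive, with a median of -0.06 where all tested probe sets had 0.01. limma called 0 of the 4637 probe sets at an adjusted p under 0.05. An unadjusted p under 0.05 was then seen for 176 of all, with 0 members among them. By role, 2 of 15 core, 6 of 16 matrix arm accessory, 4 of 27 membrane arm accessory and 1 of 5 assembly factor probe sets were positive without those arrays, with medians of -0.09, -0.04, -0.06 and -0.14. Taking replicates 1 and 2 alone, 36 of 66 were positive (median 0.01), and taking replicates 3 and 4 alone, 23 of 66 were (median -0.04).

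The intervals of the remaining core genes all held 0 but differed in width. Ndufs7, which carries the last iron-sulfur cluster before ubiquinone (1424313_a_at), was at 10.95, 10.91, 10.76 and 10.91 in NTg and 10.99, 11.01, 10.75 and 10.98 in SOD1-G93A gastrocnemius, a difference of 0.05 (95% interval -0.18 to 0.28) with overlapping groups. In triceps it differed by 0.003 (95% interval -0.23 to 0.23), and its other probe set (1451312_at) by 0.09 (95% interval -0.20 to 0.38). Ndufv1, which binds NADH and the flavin, had 3 probe sets, all positive in gastrocnemius (0.01 to 0.13) and all negative in triceps (-0.19 to -0.06), none with groups that stood apart. The lowest of these (1415966_a_at) had an interval from -0.45 to 0.07. The 5 probe sets of Ndufs8 lay between 0.004 and 0.16 in gastrocnemius and between -0.02 and 0.10 in triceps, where the interval of 1423908_at ran from -0.27 to 0.43. Ndufs1 stood at -0.13 and -0.07. The triceps values without the low-Ckm arrays were -0.01 and -0.09 for Ndufs7, -0.13 to 0.02 for Ndufv1, -0.15 to 0.04 for Ndufs8 and -0.09 for Ndufs1.

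Among the assembly factors, Ndufaf1, which acts on the membrane arm (1423711_at), stood at 0.10 (SE 0.16) in gastrocnemius and -0.02 (SE 0.16) in triceps. Ndufaf3 (1418185_at) stood at -0.08 (SE 0.18) and 0.03 (SE 0.18). Ndufaf5, which modifies Ndufs7 during assembly (1428745_a_at), stood at -0.25 (SE 0.24) and -0.15 (SE 0.24), so its intervals, from -0.75 to 0.25 and from -0.66 to 0.35, were wider than those of most subunits. When the low-Ckm arrays were left out, the triceps values were -0.14 for Ndufaf1, -0.11 for Ndufaf3 and -0.45 (SE 0.30) for Ndufaf5.

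Averaged over both muscles, with the mouse as a random block, limma called 0 of 66 members at an adjusted p under 0.05 (0% of all tested probe sets), and an unadjusted p under 0.05 was seen for 0 (1.83% of all). The differences lay between -0.29 and 0.18, with 38 of 66 positive and a median of 0.02 (32 of 66 and -0.01 after quantile normalization), and 61 intervals stayed within 1.5-fold. Ndufa3 (1428464_at) stood at 0.15 (SE 0.10), Ndufa12 (1418814_s_at), a matrix arm subunit, at 0.12 (SE 0.10) and Ndufa7 (1428360_x_at), also of the matrix arm, at 0.08 (SE 0.08). Toward NTg, Ndufaf4 (1435333_at) stood at -0.29 (SE 0.22), Ndufv2 (1452692_a_at) at -0.16 (SE 0.11) and Ndufb10 (1428322_a_at), of the membrane arm, at -0.11 (SE 0.09). The adjusted p was 0.997 for each of these. Without the low-Ckm arrays 24 of 66 differences were positive, with a median of -0.02, and 64 intervals stayed within 1.5-fold. The 6 values then were 0.02, 0.08, 0.03, -0.08, -0.11 and -0.08 in the order given. Leaving out 1 triceps array at a time, the median was also below 0 without NTg replicate 1 (26 of 66 positive), NTg replicate 2 (28) or SOD1-G93A replicate 4 (27).

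The genotype effect was not shown to differ between the muscles for any member. The difference of the effects (gastrocnemius minus triceps) was called for 0 of 66 members (0% of all tested probe sets), and an unadjusted p under 0.05 was seen for 1 (1.85% of all). That was Ndufv2 (1438159_x_at) at 0.96 (SE 0.42, adjusted p = 0.999), whose gastrocnemius values were 10.05, 9.76, 9.69 and 9.88 in NTg and 10.14, 10.84, 9.88 and 9.72 in SOD1-G93A mice. Its gastrocnemius groups overlapped, with SOD1-G93A replicate 2 the highest. Ndufb7 (1416417_a_at) followed at 0.41 (SE 0.20), Ndufv1 (1415966_a_at), the NADH-binding core subunit, at 0.28 (SE 0.17), and, in the other direction, Ndufs4 (1438166_x_at) at -0.40 (SE 0.44), Ndufab1 (1428159_s_at) at -0.26 (SE 0.18) and Ndufa7 (1450818_a_at) at -0.16 (SE 0.19). Without the low-Ckm arrays these values were 0.57 (SE 0.35) for Ndufv2, 0.32 for Ndufb7, 0.21 for Ndufv1, -0.66 (SE 0.51) for Ndufs4, -0.18 for Ndufab1 and 0.04 for Ndufa7. The difference of the effects was positive for 38 of 66 members with a median of 0.02, where all tested probe sets had -0.04. Without the low-Ckm arrays it was positive for 51 of 66 with a median of 0.09, where all had -0.02, and limma called 0 probe sets at an adjusted p under 0.05. An unadjusted p under 0.05 was then seen for 244 of all, with 0 members among them. Leaving out 1 array at a time gave 27 (median -0.03, without NTg triceps replicate 4) to 48 positive members (median 0.05, without NTg triceps replicate 2). This comparison was the least precise: 43 of 66 intervals stayed within 1.5-fold and 63 within 2-fold, or 51 and 63 without the low-Ckm arrays. These intervals do not use the pairing of both muscles in a mouse. With the mouse as a fixed block and all arrays, limma again called 0 probe sets. An unadjusted p under 0.05 was then seen for 1 member and for 150 of all tested probe sets.

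**Figure D3:**
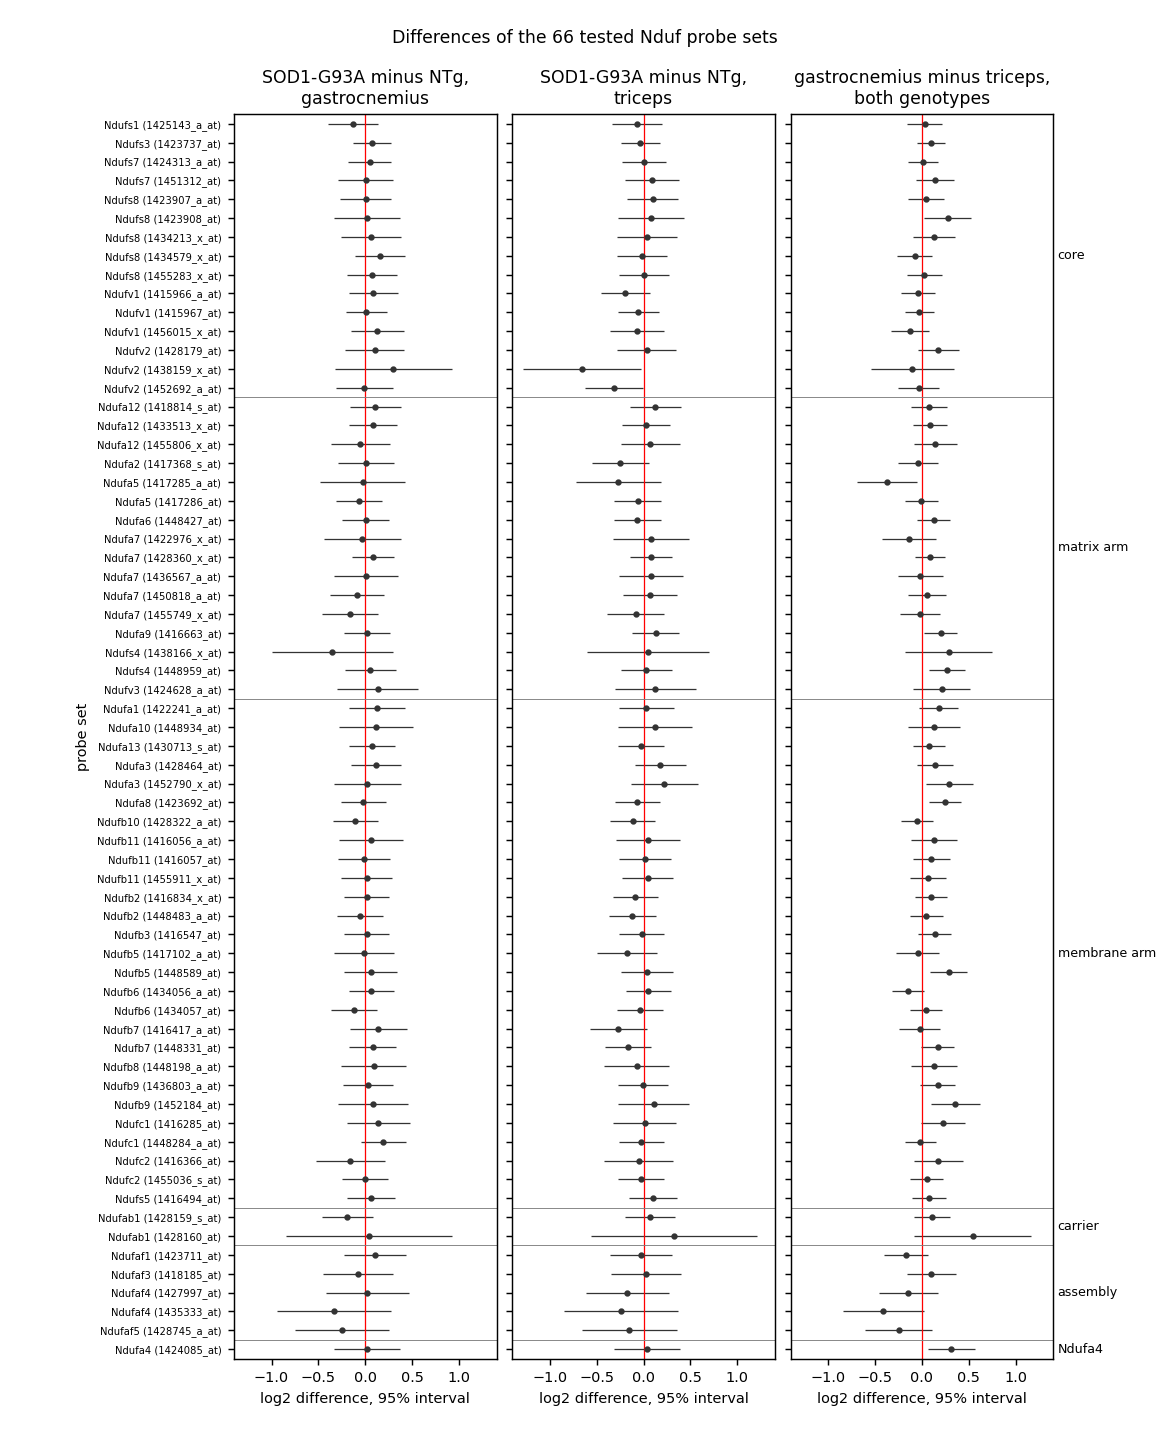
Log2 differences of the 66 tested Nduf probe sets (rows, grouped by role) with their 95% intervals from limma, for genotype in gastrocnemius, genotype in triceps and gastrocnemius against triceps. In the genotype panels only the intervals of 2 Ndufv2 probe sets in triceps leave 0 out, whereas 9 intervals do in the muscle panel, 8 of them to the right.

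Probe sets of the other respiratory complexes were not called for genotype either. Of 82 tested probe sets of complexes II to V, limma called 0 in either muscle, with 50 positive in gastrocnemius (median 0.02) and 43 in triceps (median 0.005) as deposited, 37 and 32 after quantile normalization, and 1 had an unadjusted p under 0.05 in each muscle. In triceps 19 of the 82 were positive without the low-Ckm arrays, with a median of -0.05. Atp5md, a small ATP synthase subunit, stood at -0.47 (SE 0.23) in gastrocnemius and -0.49 (SE 0.23) in triceps, and Cox19, a copper chaperone for complex IV assembly, at 0.40 (SE 0.18) in gastrocnemius. Of 3 tested further factors for complex I, Ecsit and Tmem70, both of its assembly, stood at 0.24 (SE 0.14) and 0.12 (SE 0.21) in gastrocnemius. Of 7 tested probe sets for mitochondrial biogenesis 2 were positive in gastrocnemius and 4 in triceps. Without the low-Ckm arrays 6 of 6 tested ones were positive in triceps, with a median of 0.17 and 0 called. With all arrays Tfb2m, a mitochondrial transcription factor, stood at -0.43 (SE 0.18) in gastrocnemius and 0.23 (SE 0.18) in triceps. Adjusted p was 0.999 in gastrocnemius and 0.994 in triceps for these. Of the adipocyte list 8 of 14 genes are in the table: Adipoq, Fabp4, Lpl, Scd1, Fasn, Thrsp, Car3 and Cd36. Plin1, Cidec, Cfd, Retn, Lep and Pparg are not. Of its 14 tested probe sets 10 were positive for genotype in gastrocnemius and 14 in triceps, with 0 called. The mean level of this list was 8.78 to 9.08 on NTg and 9.12 to 9.55 on SOD1-G93A gastrocnemius arrays. On triceps arrays it was 8.58 to 8.97 against 9.03 to 9.25. Its part in the Nduf values was not tested.

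Between the muscles the Nduf probe sets as deposited leaned toward gastrocnemius, without any passing the test, and the lean turned after quantile normalization. limma called 0 of 66 members at an adjusted p under 0.05, although 3.69% of all tested probe sets (171) were called, and the smallest adjusted p of a member was 0.0951. An unadjusted p under 0.05 was reached by 9 members, 8 of them higher in gastrocnemius, where 22.3% of all tested probe sets reached it. Differences (gastrocnemius minus triceps) were positive for 45 of 66, with a median of 0.08, against 2272 of 4637 and a median of -0.004. With the mouse as a fixed block, which uses the pairing of both muscles in a mouse, 318 probe sets were called, still with 0 members (smallest adjusted p 0.0562). An unadjusted p under 0.05 was then seen for 12 of 66 members and for 1283 of all 4637.

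Ndufa8, a membrane arm subunit facing the intermembrane space (1423692_at), had the smallest p. Its gastrocnemius signals were 11.06, 10.83, 10.78 and 10.90 in NTg and 10.87, 10.86, 10.88 and 10.88 in SOD1-G93A mice, and its triceps signals were 10.67, 10.53, 10.76 and 10.70 and 10.67, 10.28, 10.62 and 10.83. Gastrocnemius was higher in 8 of 8 mice, although the lowest gastrocnemius value lay below the highest triceps value, and the difference was 0.25 (SE 0.08, adjusted p = 0.0951). It was 0.16 (SE 0.07, adjusted p = 0.28) without the low-Ckm arrays. It is one of the genes whose promoter is printed above. How many of all tested probe sets were higher in 8 of 8 mice was not counted. The 8 of 8 given here and below therefore has no background to set it against.

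Ndufb5, of the membrane arm (1448589_at), was at 11.61, 11.73, 11.58 and 11.63 in NTg and 11.70, 11.74, 11.56 and 11.78 in SOD1-G93A gastrocnemius. In triceps it was at 11.40, 10.95, 11.63 and 11.46 and at 11.25, 11.40, 11.34 and 11.60. The muscles overlapped through a pair of triceps arrays, and the difference was 0.29 (SE 0.09, adjusted p = 0.0969), or 0.20 (SE 0.07, adjusted p = 0.223) without the low-Ckm arrays. The other Ndufb5 probe set (1417102_a_at) did not show it, with NTg triceps replicate 2 its highest array at 11.56. Ndufs4 (1448959_at) was at 10.19, 10.17, 9.93 and 10.31 and at 10.23, 10.18, 10.23 and 10.17 in gastrocnemius, and at 9.85, 9.54, 10.01 and 10.17 and at 9.74, 9.90, 9.99 and 10.07 in triceps, NTg first. The muscles overlapped, and the difference was 0.27 (SE 0.09, adjusted p = 0.107), or 0.17 (SE 0.08, adjusted p = 0.377) without the low-Ckm arrays.

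Among the 8 positive members with an unadjusted p under 0.05 the largest difference was that of Ndufb9, of the membrane arm (1452184_at), at 0.36 (SE 0.13, adjusted p = 0.116), or 0.16 (SE 0.09) without the low-Ckm arrays. Over all members it was that of Ndufab1 (1428160_at), at 0.54 (SE 0.30, adjusted p = 0.277), which was -0.09 (SE 0.12) without them. Ndufa4, the subunit now placed in complex IV (1424085_at), differed by 0.32 (SE 0.12) and was higher in gastrocnemius in 8 of 8 mice. It was at 12.16, 12.03, 11.99 and 12.16 and at 12.23, 11.89, 12.12 and 12.18 in gastrocnemius, and at 11.57, 11.48, 11.89 and 12.11 and at 11.95, 11.30, 11.88 and 12.05 in triceps, NTg first. The muscles overlapped, and its 3 lowest values lay on the low-Ckm arrays, without which the difference was 0.11 (SE 0.08). Ndufa9 (1416663_at) was also higher in 8 of 8 mice, by 0.20 (SE 0.08, adjusted p = 0.163), or 0.11 (SE 0.07) without those arrays. The remaining positive ones were a probe set each of Ndufa3 (0.29, and 0.11 without those arrays) and Ndufs8 (0.28 and 0.11).

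The only member with an unadjusted p under 0.05 toward triceps was Ndufa5, of the matrix arm (1417285_a_at). It was at 10.16, 10.23, 9.90 and 10.16 and at 10.08, 10.01, 10.04 and 10.23 in gastrocnemius, and at 10.73, 11.46, 10.09 and 10.16 and at 10.40, 10.56, 10.14 and 10.27 in triceps, NTg first. The 3 highest arrays were the low-Ckm ones, and the difference was -0.37 (SE 0.15, adjusted p = 0.163), or -0.09 (SE 0.08) without them. Ndufaf4 (1435333_at) at -0.41 (SE 0.20) and Ndufb6, of the membrane arm (1434056_a_at), at -0.15 (SE 0.08) came next, and stood at -0.15 and -0.08 without those arrays.

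By role, the muscle difference as deposited was positive for 22 of 27 membrane arm probe sets (median 0.13), and after quantile normalization for 10 of 27 (median -0.03). The matrix arm accessory probe sets went from 10 of 16 to 6 of 16, and the core probe sets from 9 of 15 to 4 of 15. Assembly factors were positive for 1 of 5 on both scales, with medians of -0.17 and -0.15. Without the low-Ckm arrays, as deposited, the positive ones were 15 of 27, 8 of 16, 8 of 15 and 1 of 5 in the same order. The probe sets of complexes II to V were positive for 67 of 82 as deposited (median 0.21) and for 49 of 82 after quantile normalization (median 0.05), and for 61 of 82 as deposited without the low-Ckm arrays (median 0.05). limma called 1 of them as deposited and 0 after quantile normalization, Atp5h of ATP synthase, at 0.33 (SE 0.07, adjusted p = 0.012), while Cox8b of complex IV stood at 0.39 (SE 0.12, adjusted p = 0.0834). Of 7 probe sets for mitochondrial biogenesis 1 was positive, with Tfam, the factor that packages mitochondrial DNA, at -0.45 (SE 0.19, adjusted p = 0.166) and Tfb2m at -0.29 (SE 0.13, adjusted p = 0.197). Without the low-Ckm arrays 2 of 6 tested ones were positive. The muscles also differed in markers of fibre types and of other cells: 15 of 16 slow fibre probe sets were called higher in gastrocnemius, and the mean of that list (11 of 12 genes in the table) was 9.18 to 10.29 on gastrocnemius and 5.001 to 7.98 on triceps arrays. The Schwann cell list, with 2 of 8 genes in the table, had 4 of 4 tested probe sets called higher in gastrocnemius, with a median of 2.01. Its mean level was 7.79 to 8.17 on NTg and 6.21 to 8.38 on SOD1-G93A gastrocnemius arrays, against 5.88 to 6.25 and 5.78 to 6.54 on triceps arrays. Of the fibroblast and tendon list 12 of 13 were positive and 3 called higher (median 0.43), and of the fast fibre list 19 of 19 were positive and 1 called higher (median 0.50). Without the low-Ckm arrays 11 of 13 (1 called, median 0.46) and 12 of 19 (1 called, median 0.04) were positive. The fast fibre list includes Ckm, by which those arrays were picked. The slow fibre list then still had 15 of 16 called and the Schwann cell list 4 of 4 (median 1.90). The part of these lists in the Nduf lean was not tested.

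The lean toward gastrocnemius was uneven over the mice. The median Nduf difference within a mouse was 0.20, 0.16, -0.05 and -0.02 in NTg mice 1 to 4 and 0.11, 0.26, 0.06 and -0.01 in SOD1-G93A mice 1 to 4. The 3 highest belong to the mice of the low-Ckm arrays. Without those arrays 34 of 66 members were positive, with a median of 0.02, and limma called 108 probe sets, 0 of them Nduf, while 2 members of 66 and 640 of all 4637 had an unadjusted p under 0.05. The median difference of all tested probe sets also depended on their brightness. Of the 648 with a mean above 10, which include 56 Nduf probe sets, the median was 0.12, and that of the 56 was 0.08. After quantile normalization these medians were -0.02 and -0.05, and 24 of the 66 members were positive with a median of -0.04, so the sign of the median turned with the scaling.

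**Figure D4:**
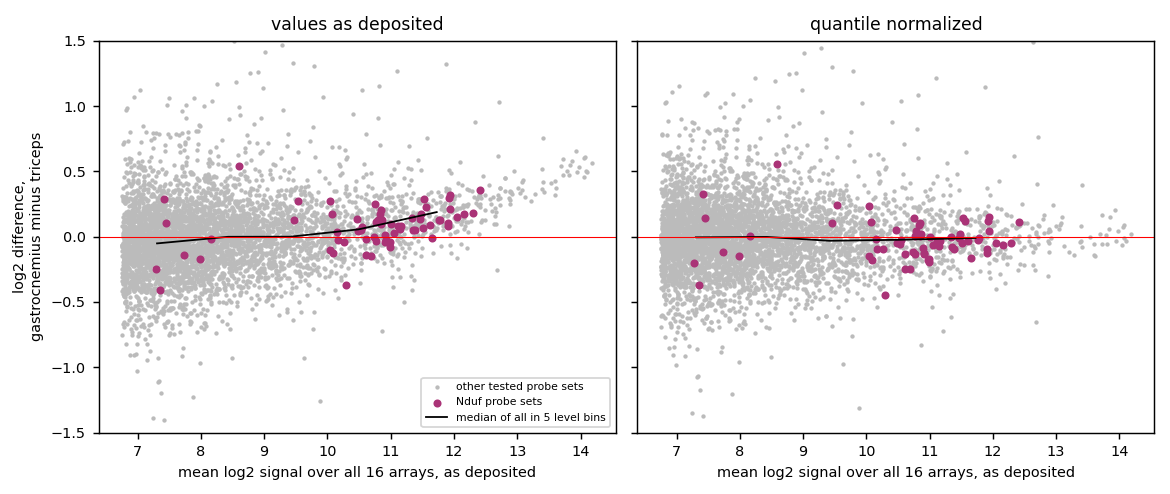
Difference between gastrocnemius and triceps (log2, vertical) against mean level (log2, horizontal) for each tested probe set, with the values as deposited (left) and after quantile normalization (right). The Nduf probe sets (purple) follow the rising median of bright probe sets (black line) on the left and lie about 0 or slightly below on the right, where 24 of 66 are positive. 24 probe sets lie outside the vertical axis.

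On the 3 low-Ckm arrays the members did not move as a block. Relative to the other 5 triceps arrays, 15 of 66 Nduf probe sets had all 3 values below, where 12% of all tested probe sets did, and 3 had all 3 above, where 10.6% did. The mean was lower for 44 of 66, with a median of -0.16, against 2378 of 4637 and a median of -0.01 over all tested probe sets. That background is not matched for level. Probe sets with a mean above 10, 56 of them Nduf, had array means of 10.95 to 11.02 there, against 11.16 to 11.31 on the other triceps arrays. These arrays were chosen for their Ckm signal and cross both genotypes, so no test was made. Among the members below, Ndufv3, a matrix arm subunit, was lower by a mean of 0.69 on the log2 scale, at 11.16 to 11.54 against 11.81 to 12.25. Ndufa10, of the membrane arm (1448934_at), was at 10.23 to 10.54 against 10.74 to 11.07.

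Probe sets of the same gene parted on these arrays. Suffixes such as _a, _s and _x in their names mark probe sets that can match several transcripts of a gene, or other sequences as well. Ndufab1 (1428160_at) was at 6.94 and 7.74 on the low-Ckm NTg arrays and at 7.14 on the SOD1-G93A one, against 8.47 to 9.33 on the other triceps arrays, a difference of -1.68, while its second probe set (1428159_s_at) differed by -0.16. Ndufv2 went both ways, by 0.96 for 1438159_x_at and -0.26 for 1428179_at. Ndufa5 differed by 0.71 for 1417285_a_at and by 0.19 for 1417286_at, and Ndufb5 by 0.43 for 1417102_a_at and by -0.20 for 1448589_at. The array with the most extreme values was NTg triceps replicate 2, the highest of all 16 for 1438159_x_at of Ndufv2 (11.28) and for 1417285_a_at of Ndufa5 (11.46).

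**Figure D5:**
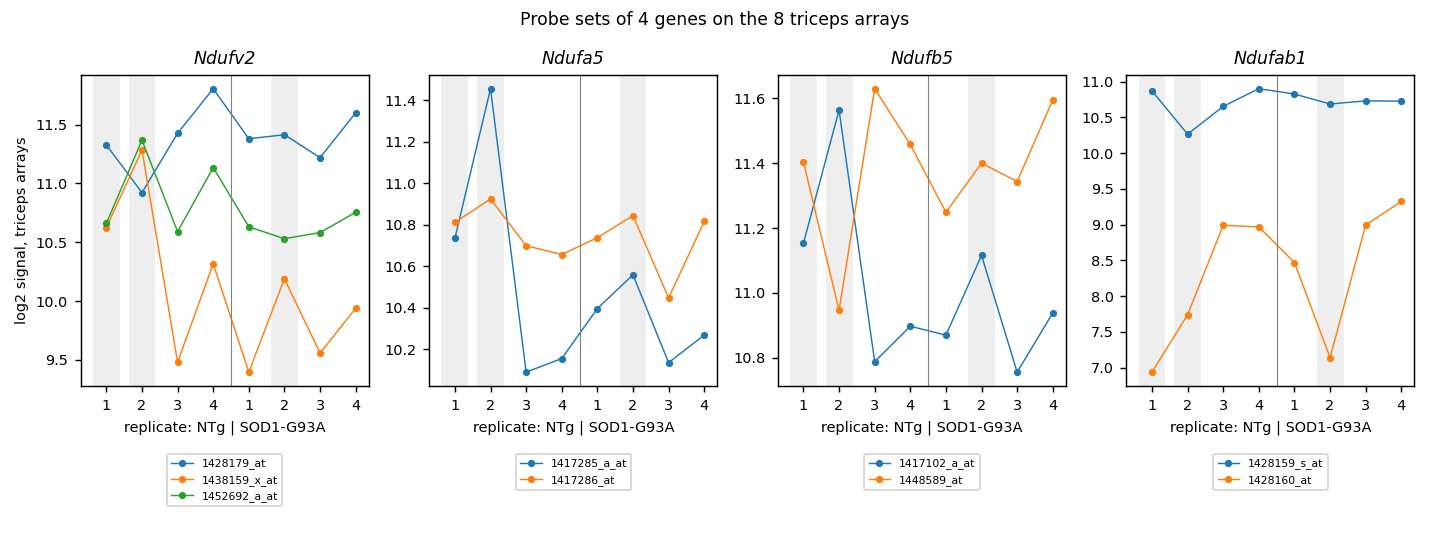
Log2 signal of the probe sets of Ndufv2, Ndufa5, Ndufb5 and Ndufab1 (1 line each) on the 8 triceps arrays, NTg to the left and SOD1-G93A to the right of the vertical line, with the low-Ckm arrays shaded. Within a gene the lines take different courses on shaded arrays, as for the Ndufab1 probe sets, which differ there by -1.68 and -0.16 from the other triceps arrays; the height of lines is not comparable between probe sets.

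In all, 19 genes had 2 or more tested probe sets. Their differences had opposite signs within the gene for 10 of 19 genes in gastrocnemius and 7 of 19 in triceps for genotype, and for 7 of 19 between the muscles. The widest gap within a gene was 0.69 on the log2 scale for genotype in triceps (Ndufv2), 0.40 for genotype in gastrocnemius (Ndufs4) and 0.43 between the muscles (Ndufab1). A typical gap was smaller, with medians of 0.12 in gastrocnemius, 0.10 in triceps and 0.19 between the muscles.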

How the data were processed

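RNA of each muscle had been labelled from 4 ug and hybridised to Affymetrix arrays, per the labels' protocols. The deposited values are log2 signals, with 1 for every probe set on every array. Per the submitters' processing notes the authors used MAS5, with no version, and its scaling is not given in the sources used here. Base 2 was read from the values. Arrays have no depth, so their number limits the precision. The platform annotation pairs 7053 probe sets with 1 symbol, 330 with more than 1 and 346 with none.

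Probe sets with a mean above the 40th percentile (4637) were tested. A mean for each of the 4 groups was fitted to all 16 arrays with limma 3.58.1 under R 4.3.3 (lmFit, eBayes with an intensity trend), and p-values were adjusted by Benjamini-Hochberg over all tested probe sets. The genotype comparison over both muscles had the mouse as a random block, with a consensus correlation of 0.18 from duplicateCorrelation. The fit was run on simulated data of independent normal values, which held neither the pairing by mouse nor the low-Ckm arrays. Intervals are 95% intervals from limma. Alternatives were quantile normalization, other filters, no trend, blocks for the replicate, 1 probe set per gene and leaving out arrays.

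Within a genotype, arrays with the same replicate number were treated as 1 mouse, since the design states that both muscles came from the same 4 mice per genotype. In deviations from the group means, both muscles of a mouse correlated at 0.14 to 0.39 in 8 of 8 mice. The best match lay within the same mouse for 7 of 8. For NTg mouse 1, with the lowest correlation, it was SOD1-G93A mouse 1, which has the same replicate number.

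Members, gene lists and named genes were chosen with earlier results of these data known. Named per comparison are called members, filled up to 3 per direction by smallest p, then core subunits, genes with several probe sets, extremes of level and spread, and from the other lists the 2 genes of smallest p. Further members, and the probe sets given for single arrays, were chosen after their values were seen.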

Additional observations from a re-analysis of the deposited data

Results flagged for a closer look

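Among 88 sets of 4 arrays examined for the named Nduf probe sets, 2 held an array whose gap to its nearest neighbour exceeded the 95% limit of Dixon's test, where chance gives about 1 in 20. Ndufaf4 (1435333_at) was at 6.82 on SOD1-G93A triceps replicate 3, while the other 3 arrays of the group lay at 7.57 to 7.67. Ndufb7 (1416417_a_at) was at 10.54 on SOD1-G93A triceps replicate 2, one of the 3 low-Ckm arrays, while the others lay at 10.87 to 10.91.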

How the results depend on the processing

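Across 26 alternative settings, each run where it applies, limma called 0 Nduf probe sets in the 3 genotype comparisons and in the difference of the effects. For gastrocnemius against triceps the number of Nduf probe sets called, 0 as reported, was 3 with the replicate number as a replicate block (Ndufa8, Ndufa4 and Ndufb9) and 2 with replicates 1 and 2 against 3 and 4 as a block (Ndufb5 and Ndufb9), and it ranged from 0 to 1 when 1 array was left out (Ndufb5 without NTg triceps replicate 3, Ndufs4 without NTg triceps replicate 4). The number of all probe sets called there, 171, was 408 and 436 with those 2 blocks, 318 with the mouse as a replicate block and 108 without the 3 low-Ckm arrays. Leaving out 1 array gave 95 to 273: 95 without SOD1-G93A gastrocnemius replicate 3, 113 without replicate 4, 103 without NTg gastrocnemius replicate 1 or 2, 112 and 100 without SOD1-G93A triceps replicates 1 and 2, and 273 and 258 without NTg triceps replicates 3 and 4. The median Nduf difference between the muscles was -0.041 after quantile normalization. Without the low-Ckm arrays signs turned, among them in triceps Ndufa3 to -0.066 (1428464_at) and -0.031 (1452790_x_at), and for the difference of effects Ndufa7 (1450818_a_at) to 0.036. None of these was called. The cause was not tested. A replicate block changed no call in the genotype comparisons. Signal over background limits the 3 dim probe sets, which include the only one of Ndufb1.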
